A study of Mus musculus with 12 samples.

Results

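The messenger RNAs of 97 subunit genes of the respiratory chain and the ATP synthase were followed in 12 libraries of mouse macrophages, 13 of them encoded by the mitochondrial genome and 84 by nuclear chromosomes. They were taken from a table of 21899 genes by rule. Every gene on the mitochondrial chromosome was a member, as was every symbol beginning with Nduf and a subunit letter, Uqcr, Cox4 to Cox8, or Atp5. Of the nuclear members, 37 belonged by symbol to complex I, 8 to complex III, 21 to complex IV and 18 to complex V, the ATP synthase, with Ndufa4 counted as the complex IV subunit it encodes. Some of these symbols name something other than a core subunit. Cox7a2l encodes a factor of respiratory supercomplexes, Ndufa4l2 a paralogue of Ndufa4, and Cox5b-ps carries the symbol of a pseudogene.

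The cells were primary bone marrow-derived macrophages, which the labels give as wild type. Bone marrow-derived macrophages are grown from marrow precursors in culture and are a standard macrophage model. There were 4 groups of 3 libraries: macrophages labelled as control, and macrophages that had received CS-PA/CNP, PgLPS, or the combination of the 2 agents. Neither abbreviation is spelled out in the labels and no dose or time is given. The series concerns periodontitis with hypertension and a composite hydrogel. The labels do not say whether libraries of a group stem from different animals or dishes; p-values therefore reflect only the spread among these samples, which may be technical.

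Oxidative phosphorylation passes electrons from NADH and succinate through complexes I to IV to oxygen, and complex V uses the resulting proton gradient to make ATP. All complexes but II are built from both genomes: the mitochondrial genome supplies a small set of membrane-embedded core subunits, and the nucleus supplies all the others, which are imported. The mitochondrial genes are transcribed as long polycistronic RNAs from both strands and cut into single messengers, and mt-Nd6 is the only protein gene on the light strand. Macrophages activated through Toll-like receptors are known to shift ATP production from respiration towards glycolysis.

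Library totals ran from 14992707 to 20082900 reads. Summed levels of 8 macrophage markers, among them Adgre1, Csf1r and Cd68, were 19990 to 31680 CPM (read counts divided by the scaled library total) in every library, against at most 0.34 CPM for 3 T cell markers found in the table and at most 0.30 CPM for 5 erythroid markers. The macrophage sum was higher in all libraries with PgLPS (28210 to 31680 CPM) than in those without (19990 to 24340 CPM). The 5 B cell markers summed to 2.60 to 5.98 CPM and the 3 dendritic markers to 0.05 to 0.84 CPM. Neutrophil markers, 7 genes, summed to between 93.8 and 225 CPM and were likewise higher in all libraries with PgLPS (159.6 to 225 CPM) than in those without (93.8 to 144.6 CPM). The 6 stromal markers summed to 0.47 to 4.6 CPM outside the PgLPS group and to 5.8 to 53.5 CPM within it, with PgLPS library 1 highest. Their part in the results was not tested. The levels of neutrophil and stromal markers stayed far under those of macrophage markers in each library.

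The mitochondrial counts need to be read with the sequence of the genes in view. Between mt-Co1 and mt-Nd4, a run of 6 neighbouring genes (mt-Co2, mt-Atp8, mt-Atp6, mt-Co3, mt-Nd3 and mt-Nd4l) held only 0.135% to 0.21% of the mitochondrial subunit reads of a library, and the other 7 genes held all the remaining reads. On the per-length scale, control levels were 22.2 CPM per kb for mt-Co2 and 0.65 for mt-Nd4l, against 545 for mt-Nd6 and 5024 for mt-Co1. In the GENCODE M21 annotation of GRCm38, whose mitochondrial coordinates equalled those in the deposited table for 13 of 13 genes, 97.8% to 99.9% of the 75-base stretches of mt-Co2, mt-Atp6, mt-Co3, mt-Nd3 and mt-Nd4l also occurred in transcripts of other genes. The partner of mt-Co2 was Gm28661 and that of mt-Co3 was Gm28437, both on chromosome 1, where copies of mitochondrial DNA lie in the nuclear genome. The share was 61.5% for mt-Nd4, 39.8% for mt-Co1, 5.71% for mt-Nd2 and 1.66% for mt-Nd5, and 0 for mt-Nd1, mt-Nd6, mt-Cytb and mt-Atp8. Counted instead as bases that lie inside such a stretch, it was 71.5% for mt-Co1 and 63.6% for mt-Nd4. mt-Atp8 was thus low without a shared stretch in an annotated transcript. Only annotated transcripts were searched, so a copy outside them would not be seen. In the table mt-Atp8 overlaps mt-Atp6, and its neighbours mt-Co2 and mt-Atp6 both have partners on chromosome 1. Whether reads with several possible origins were dropped in the authors' counting was not tested. Nuclear coordinates in the table mostly differed from GENCODE M21, so the authors' reference may hold other partners.

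The windows below, from GRCm38, show the contrast between a gene shared throughout, a gene shared up to a boundary and a gene with no shared stretch. Capitals mark bases inside a 75-base stretch found in another annotated transcript. They are bases 1 to 60 of mt-Co3 (MT:8607-8666, plus strand), bases 847 to 906 of mt-Nd4 (MT:11013-11072, plus strand) and bases 1 to 60 of mt-Cytb (MT:14145-14204, plus strand), all within the protein genes.
mt-Co3: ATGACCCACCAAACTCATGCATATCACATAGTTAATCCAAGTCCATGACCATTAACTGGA
mt-Nd4: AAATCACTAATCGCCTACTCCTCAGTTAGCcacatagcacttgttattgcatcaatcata
mt-Cytb: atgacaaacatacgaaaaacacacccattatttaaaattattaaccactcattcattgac
Results on mitochondrial transcripts below rest on the 7 genes with most reads. In bulk RNA a lower level can mean fewer cells that hold the messenger or less of it per cell, and these cannot be told apart.

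**Figure D1:**
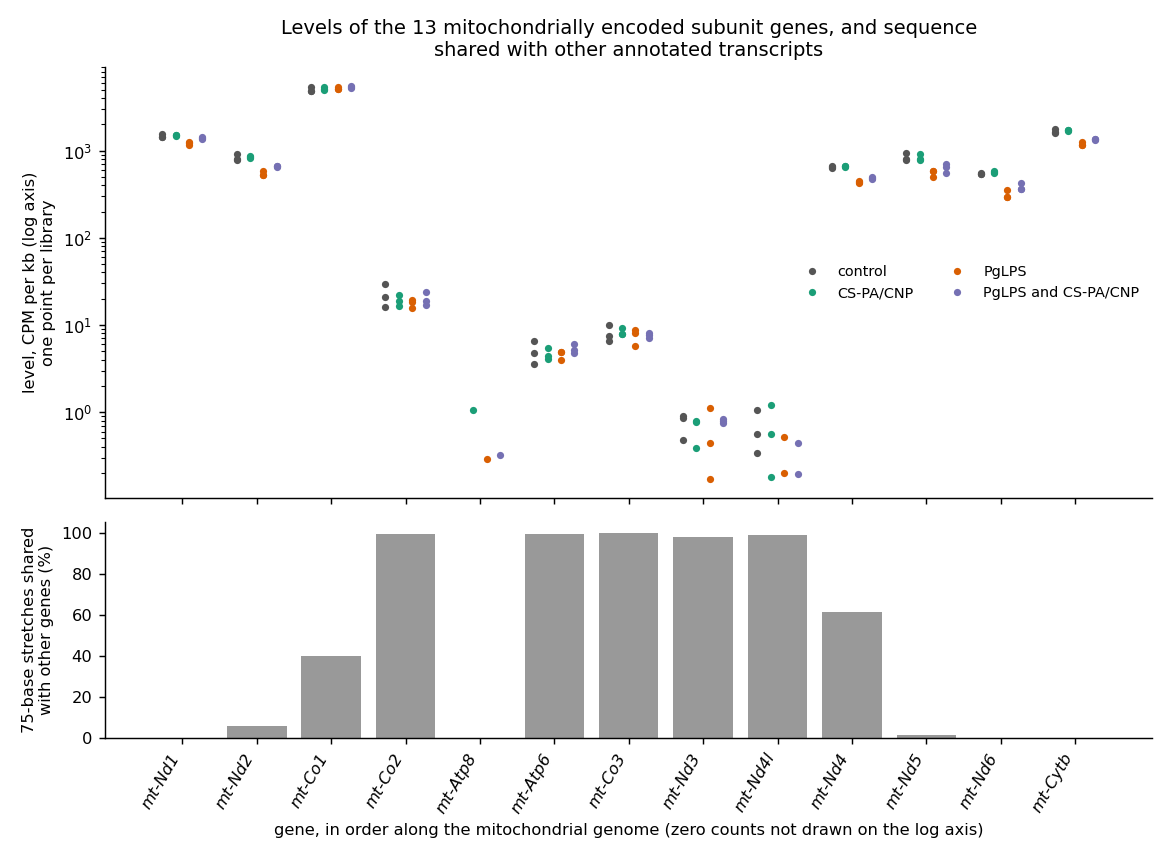
The upper panel gives the level of each mitochondrially encoded gene in each library, in CPM per kb on a log axis, in order along the mitochondrial genome, and the lower panel the percentage of its 75-base stretches found in transcripts of other genes. A run of 6 genes from mt-Co2 to mt-Nd4l lies far below the other 7, and 5 of those 6 are at 97.8% or more in the lower panel; the PgLPS libraries lie below the control libraries for mt-Nd1, mt-Nd2, mt-Nd4, mt-Nd5, mt-Nd6 and mt-Cytb.

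Nuclear members were scarcer. Of the 84, Cox8a and Cox6a1 had the highest control levels per length, 187 and 175 CPM per kb. The tissue-restricted isoforms were nearly silent: Cox8b, Cox8c, Cox7b2 and Ndufa4l2 had no read in any library, which at a limit of 3 counts per library allows up to 0.134 to 0.229 CPM. Cox4i2, the lung and hypoxia isoform of Cox4, had 4 to 11 reads per group, and the muscle isoform Cox6a2 had 48 to 69. In all, 6 members had no read in any library, among them one of 2 rows with the symbol Atp5o, and 86 members (10 mitochondrial and 76 nuclear) had enough reads to be tested.

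PgLPS against control asked how subunit messengers responded to PgLPS alone. The 6 well-counted mitochondrial messengers other than mt-Co1 fell, mt-Nd6 most. Nuclear subunits moved in both directions, with more rises than falls under the main scaling and fewer under another, both given below. mt-Nd6 encodes the light-strand subunit of complex I and overlaps mt-Nd5 on the opposite strand in the table. Both strands of the mitochondrial genome are transcribed, and no source used here states whether the libraries kept strand. Reads from the opposite strand therefore cannot be told apart in its count. The level of mt-Nd6 was 286.4, 281.3 and 281.0 CPM in the 3 control libraries and 152.0, 183.4 and 153.6 CPM with PgLPS. Every PgLPS library lay below every control library. The log2 fold change was −0.80 ± 0.08 (SE, n = 3 per group; edgeR quasi-likelihood test, Benjamini-Hochberg adjusted p = 2.45e-08, with calls made below 0.05).

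The other complex I genes of the mitochondrial genome fell as well. mt-Nd2 fell by 0.61 ± 0.06 on the log2 scale (edgeR adjusted p = 1.14e-07), mt-Nd5 by 0.60 ± 0.09 and mt-Nd4 by 0.59 ± 0.05, with no overlap between the groups for any of them. mt-Nd1 changed less, by −0.27 ± 0.05 (adjusted p = 0.000193 in edgeR), from 1356 to 1477 CPM in control libraries to 1113 to 1210 CPM with PgLPS. Cytochrome b of complex III, encoded by mt-Cytb, was at 2004, 1869 and 1839 CPM in control and at 1326, 1338 and 1425 CPM with PgLPS, a log2 fold change of −0.48 ± 0.05 (edgeR adjusted p = 8.82e-08). The groups were again fully apart.

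mt-Co1, the catalytic subunit of cytochrome oxidase and the member with most counted reads, did not follow. It was at 8298, 7491 and 7496 CPM in control and 7827, 7822 and 8352 CPM with PgLPS, overlapping ranges with a log2 fold change of 0.04 ± 0.05 (edgeR adjusted p = 0.485), or −0.37 (adjusted p = 5.26e-06) on library totals, a scaling discussed next. The 3 tested genes of the low run, mt-Co2, mt-Atp6 and mt-Co3, gave −0.32 ± 0.19, −0.11 ± 0.24 and −0.08 ± 0.19 and did not pass the test. mt-Co2 passed without control library 3 (−0.52, edgeR adjusted p = 0.0179). Of the tested genes, 0 of 10 tested mitochondrial members were called higher and 6 lower (60%), beside 32.2% of all 11656 tested genes called higher and 31.6% called lower; the mitochondrial median was −0.40 and that of all tested genes 0.00.

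Among nuclear members, 21 of 76 tested rose (27.6%) and 5 fell (6.58%), with a median of 0.15. Scaling decides much of this count. The TMM method used here assumes that most genes do not change, and its factors were lower in the PgLPS libraries than in control; with library totals in its place, the median of all tested genes moved by −0.42, and 3 nuclear members were called higher and 43 lower, with 0 and 9 mitochondrial ones. On library totals the medians were −0.82 for mitochondrial members and −0.27 for nuclear members, beside −0.42 for all genes. A change of scaling moves all genes by nearly the same amount. The order of these medians was therefore bound to stay the same and is no separate result. The count of rises also depended on single libraries: 9 nuclear members were called higher without control library 1 and 9 without PgLPS library 2, where 8 were called lower.

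By complex, rises and falls numbered 6 and 3 of 36 in complex I, 3 and 1 of 8 in complex III, 5 and 1 of 15 in complex IV and 7 and 0 of 17 in complex V. Their medians were 0.06, 0.02, 0.25 and 0.15. The share that rose ran from 16.7% in complex I to 41.2% in complex V, on either side of the 32.2% of all tested genes, and the difference between complexes was not tested.

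Cox5a and Ndufb1 stood out among the nuclear rises, and both were called higher under either scaling. Cox5a, on chromosome 9, encodes a nuclear subunit that surrounds the catalytic core of cytochrome oxidase. Its level was 21.17, 24.89 and 26.08 CPM in control and 42.4, 55.37 and 46.74 CPM with PgLPS, a log2 fold change of 1.0 ± 0.12 (edgeR adjusted p = 5.38e-07) and 0.59 on library totals. All PgLPS libraries were above all control libraries. Ndufb1, an accessory subunit of complex I on chromosome 12, went from 13.36, 14.38 and 15.84 CPM to 34.32, 37.24 and 28.02 CPM, a log2 fold change of 1.19 ± 0.13 (edgeR adjusted p = 2.81e-07) and 0.78 on library totals. The GENCODE annotation types this Ndufb1 entry as a bidirectional promoter lncRNA. It overlaps Cpsf2 on the opposite strand, and 9.4% of its 75-base stretches occur in Cpsf2 transcripts. No source used here states whether the libraries kept strand, so reads from that stretch cannot be told apart.

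The next rises came from the ATP synthase and complex III. Atp5md, a small membrane subunit of the ATP synthase, rose by 0.69 ± 0.12 (edgeR adjusted p = 5.62e-05; 0.27 on library totals, still called). Atp5l and Atp5k, subunits g and e of the same enzyme, rose by 0.52 ± 0.12 and 0.49 ± 0.16, and Uqcrb of complex III by 0.45 ± 0.11 (edgeR adjusted p = 0.000899, 0.0134 and 0.00203). On library totals these 3 gave 0.10, 0.07 and 0.03 and were not called. Atp5k was also not called without control library 1 (0.41), control library 2 (0.43) or PgLPS library 2 (0.29). Of the 3 genes for the c subunit, Atp5g3 gave 0.22 ± 0.09 (edgeR adjusted p = 0.0454), while Atp5g2 gave −0.23 ± 0.10 (edgeR adjusted p = 0.0532) and Atp5g1 −0.07 ± 0.10 (edgeR adjusted p = 0.552). Atp5g2 was called lower without control library 1 (−0.34) or PgLPS library 2 (−0.30), and both were called lower on library totals (−0.64 and −0.49). Cox7a2 gave 0.39 ± 0.12 (edgeR adjusted p = 0.00722). The calls of Atp5g3 and Cox7a2 were lost without control library 1 (0.14 and 0.29) or PgLPS library 2 (0.13 and 0.25), Atp5g3 also without control library 3 (0.21), and the fold changes of these 2 turned negative on library totals (−0.20 and −0.03, not called).

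Of the 5 nuclear falls 3 were subunits of complex I, all of its peripheral arm. Ndufs8, on chromosome 19, carries iron-sulphur clusters of that arm, and its level was 29.56, 31.18 and 35.14 CPM in control and 20.06, 25.34 and 24.42 CPM with PgLPS (log2 fold change −0.45 ± 0.11, edgeR adjusted p = 0.00103). The groups did not overlap. Uqcr11, a small subunit of complex III, was at 24.42 to 31.38 CPM in control and 18.38 to 24.95 CPM with PgLPS, with overlapping groups (log2 fold change −0.42 ± 0.13, edgeR adjusted p = 0.00748; −0.84 on library totals). Ndufs1, the largest subunit of that arm, fell by 0.30 ± 0.09 (edgeR adjusted p = 0.0061), and the accessory subunit Ndufa12 by 0.32 ± 0.11 (edgeR adjusted p = 0.0169), although the latter was not called without PgLPS library 1 (−0.18, adjusted p = 0.104). Cox7a2l, the supercomplex factor, was at 106.6, 117.8 and 121.7 CPM in control and 87.09, 101.2 and 85.2 CPM with PgLPS (log2 fold change −0.34 ± 0.09, edgeR adjusted p = 0.00194). On library totals all 5 were lower by more, between −0.71 and −0.87, which follows from the shift of all genes by nearly −0.42.

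**Figure D2:**
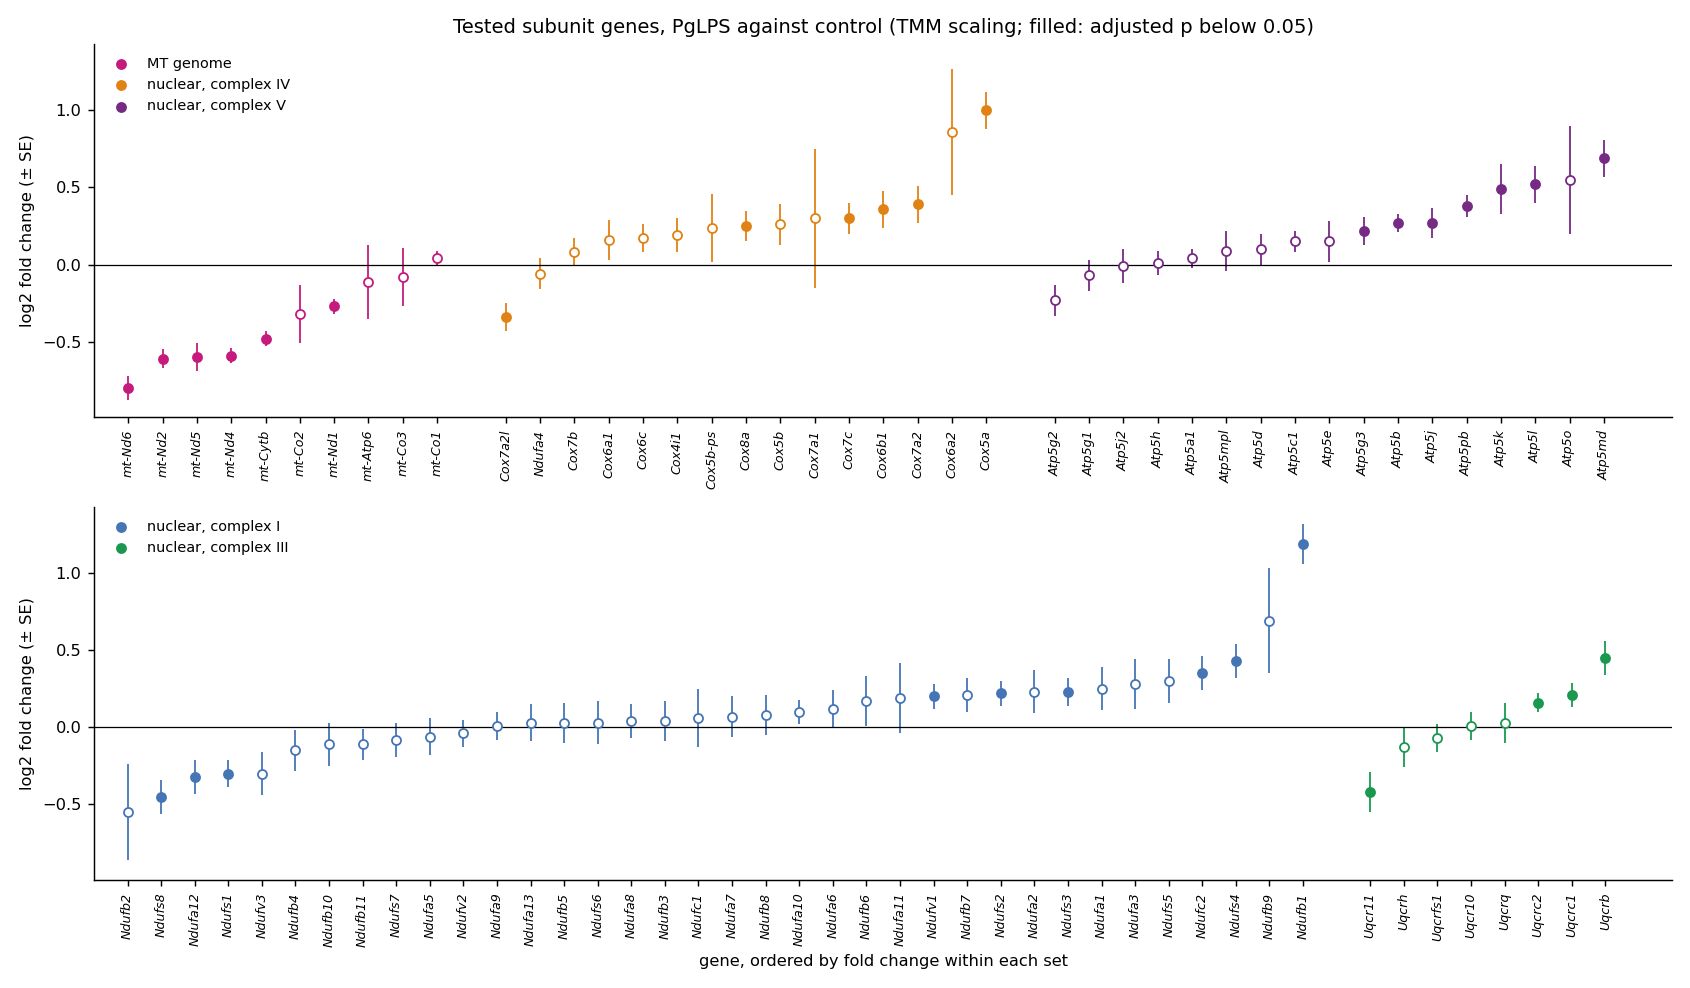
Each point is the log2 fold change of 1 tested member, PgLPS against control on the TMM scale, with its standard error; filled points passed an adjusted p of 0.05. The mitochondrial genes run from −0.80 for mt-Nd6 to 0.04 for mt-Co1, and the nuclear genes lie on both sides of 0 with Ndufb1 at 1.19 and Cox5a at 1.0; on library totals the median of all genes shifts by −0.42, and Ndufb1 and Cox5a stay above 0 while mt-Co1 goes to −0.37.

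**Figure D3:**
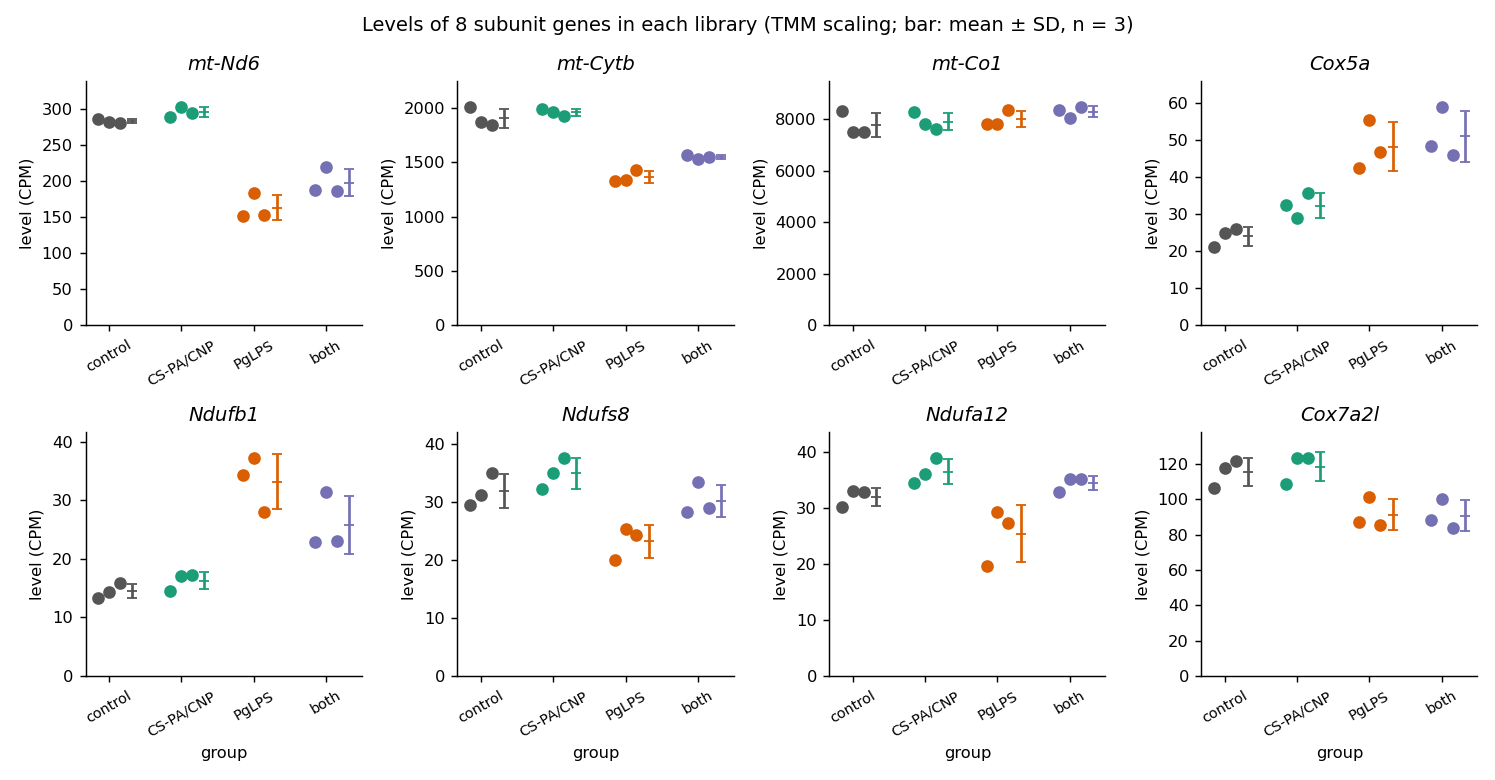
Levels of 8 members in every library on the TMM scale, in CPM, with the mean and SD of each group of 3. mt-Nd6 and mt-Cytb are lower in both groups given PgLPS, mt-Co1 overlaps between all groups, Cox5a and Ndufb1 are higher with PgLPS, and Ndufs8 and Ndufa12 are lowest with PgLPS alone.

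A ratio of reads within a library does not depend on scaling between libraries. The mitochondrial members had 3.57, 2.90 and 2.95 reads per read of the nuclear members in the control libraries, 3.25, 2.99 and 2.75 with CS-PA/CNP, 2.70, 2.17 and 2.67 with PgLPS and 2.77, 2.33 and 2.80 with both. All PgLPS libraries were below all control libraries, while the groups with CS-PA/CNP, with and without PgLPS, overlapped. The difference in mean log2 ratio was −0.32 for PgLPS against control and −0.19 for both agents against CS-PA/CNP, against a pooled SD of 0.155 within groups. The latter was −0.10 without library 2 of the group with both agents. No test was made, since the ratio is a score over the members.

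Most of the reads in the numerator came from mt-Co1. Its share of mitochondrial subunit reads was 52.8%, 52.8% and 53.0% in control, 53.4%, 52.7% and 52.9% with CS-PA/CNP, 62.0%, 62.1% and 62.0% with PgLPS and 59.7%, 59.2% and 59.6% with both. The 4 groups fell into 3 levels with gaps far wider than the spread among libraries: the 2 groups without PgLPS together, PgLPS highest, and both agents between. Left out of the sum, an alternative chosen after seeing the data, mt-Co1 left ratios of 1.69, 1.37 and 1.38 in control, 1.51, 1.42 and 1.29 with CS-PA/CNP, 1.03, 0.82 and 1.01 with PgLPS and 1.11, 0.95 and 1.13 with both. Every library with PgLPS then lay below every library without it, with log2 differences of −0.63 for PgLPS against control and −0.41 for both agents against CS-PA/CNP. With mt-Nd1, mt-Nd6 and mt-Cytb alone, which share no 75-base stretch with annotated transcripts of other genes, these differences were −0.55 and −0.35.

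Library 2 had the lowest ratio in both groups given PgLPS. The share of all reads in short genes (up to 2864 bases, the first quartile of length) was also highest there, 28.8% in PgLPS library 2 and 27.7% in library 2 with both agents, against 25.8% to 27.0% in the other libraries given PgLPS. Without PgLPS, control library 2 (26.8%) and CS-PA/CNP library 3 (27.6%) likewise had the highest such share and the lowest ratio of their groups. The part of this in the ratio was not tested. With nuclear members above the first quartile of length only, the PgLPS difference was −0.35.

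**Figure D4:**
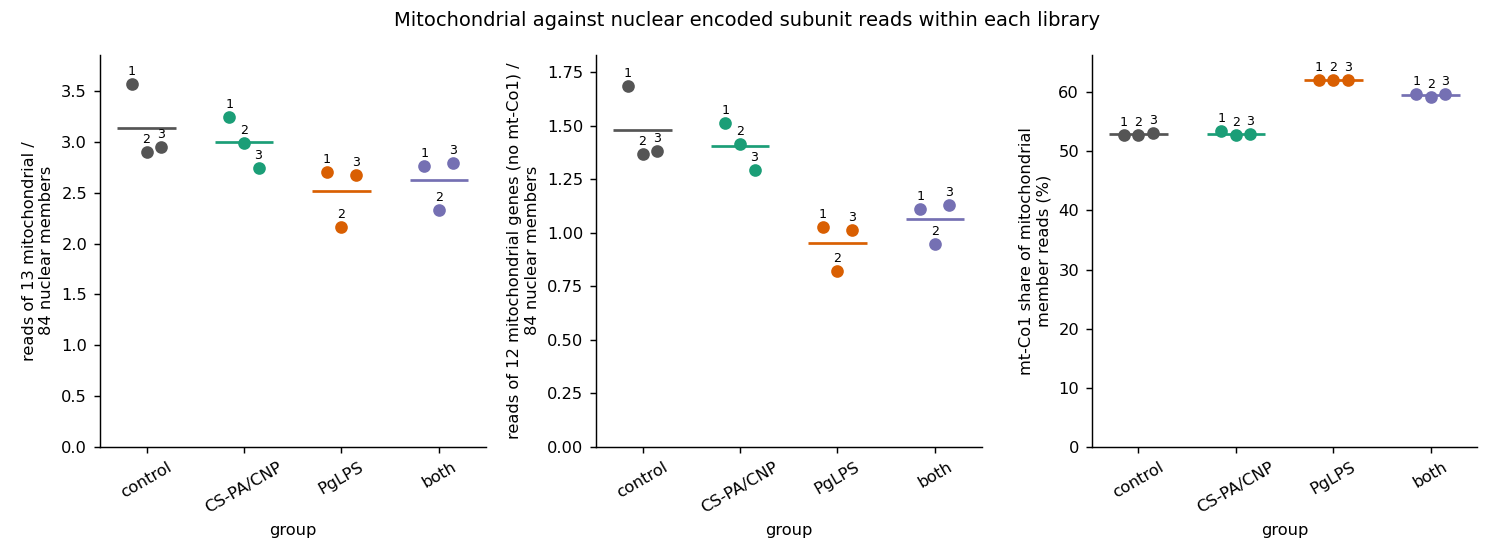
Reads of the mitochondrial members per read of the nuclear members in each library, with and without mt-Co1, and the percentage of mitochondrial subunit reads from mt-Co1; lines are group means of 3 and digits are library numbers. The mt-Co1 share is 52.7% to 53.4% without PgLPS, 59.2% to 59.7% with both agents and 62.0% to 62.1% with PgLPS alone.

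The response to PgLPS was measured again in cells that had CS-PA/CNP, by setting both agents against CS-PA/CNP, with no library in common with the comparison above. The same 5 mitochondrial messengers that fell without the material by 0.48 or more fell here too. Nuclear members rose more often than they fell on the TMM scale, and the reverse held on library totals. mt-Nd6 went from 289.1, 302.3 and 294.5 CPM to 187.5, 219.6 and 186.1 CPM (log2 fold change −0.58 ± 0.07, edgeR adjusted p = 2.57e-06), mt-Nd4 fell by 0.44 ± 0.05, mt-Nd5 by 0.38 ± 0.09, mt-Nd2 by 0.35 ± 0.06 and mt-Cytb by 0.34 ± 0.05. mt-Nd1 gave −0.09 ± 0.05 (edgeR adjusted p = 0.139) and mt-Co1 gave 0.07 ± 0.05 (edgeR adjusted p = 0.282). On library totals those 2 gave −0.42 and −0.25 and were called lower.

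Here 0 mitochondrial members were called higher and 5 of 10 lower, and 11 of 76 nuclear members higher (14.5%) and 1 lower, beside 26.6% of all tested genes called higher and 25.4% lower. The medians were −0.22 for mitochondrial and 0.08 for nuclear members, −0.01 for all genes. On library totals the median of all genes moved to −0.33, with 8 mitochondrial members lower, 3 nuclear members higher and 39 lower. Without library 2 of the group with both agents, 7 nuclear members were higher and 5 lower.

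Of the 21 nuclear members called higher with PgLPS alone, 10 were also called higher in this setting, which is 47.6% of the former and 90.9% of the 11 here. Of all 11656 tested genes, 32.2% and 26.6% were called higher in the 2 comparisons, and their overlap was not computed. Cox5a rose by 0.66 ± 0.12 and Ndufb1 by 0.67 ± 0.13 (edgeR adjusted p = 8.99e-05 and 0.000361), both also on library totals (0.34 each). Ndufs4, an accessory subunit needed for complex I stability, rose by 0.58 ± 0.11 (edgeR adjusted p = 0.000246; 0.26 on library totals, called) and Atp5md by 0.50 ± 0.12 (0.18 on library totals, not called). Ndufs3 of the complex I peripheral arm and Atp5pb, the stator subunit b of the ATP synthase, gave 0.29 ± 0.09 and 0.26 ± 0.07, and −0.03 and −0.07 on library totals, where neither was called. Ndufs3 was not called without CS-PA/CNP library 1 (0.22) or library 2 of the group with both agents (0.23). Cox7a2l was the 1 nuclear member that fell (−0.39 ± 0.08, edgeR adjusted p = 0.000855; −0.71 on library totals). Over the 86 tested members, the 2 sets of log2 fold changes had a Pearson r of 0.67 and a Spearman rho of 0.79, across genes that are not independent replicates, and 69 had the same sign. These values were not computed over all tested genes, so the likeness of the 2 responses is not shown to be particular to the members.

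**Figure D5:**
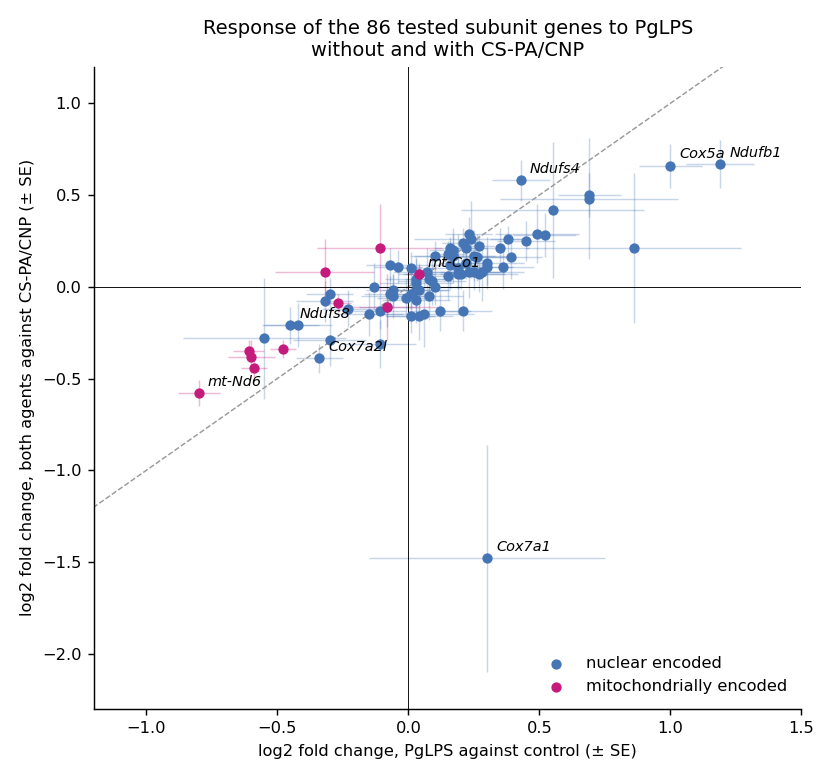
Each point is 1 tested member, with its log2 fold change to PgLPS without CS-PA/CNP on the horizontal axis and with CS-PA/CNP on the vertical axis, both with standard errors on the TMM scale; the dashed line marks equal values. Cox5a and Ndufb1 are at the upper right and mt-Nd6 at the lower left, and Cox7a1, counted at 9 to 41 reads per group, lies far from the line; library totals shift the median of all genes by −0.42 on the horizontal and −0.33 on the vertical axis.

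CS-PA/CNP against control asked what the material changed without PgLPS. The mitochondrial messengers showed no call: 0 of 10 were called in either direction by edgeR, 0 had an unadjusted p under 0.05, and DESeq2 also called 0. Their log2 fold changes among the 7 genes with most reads lay between −0.03 and 0.06. Of the nuclear members, 4 of 76 were called higher (5.26%) and 0 lower, beside 6.67% of all tested genes higher and 5.61% lower. They were Cox5a (24.05 ± 2.56 CPM in control and 32.23 ± 3.38 with CS-PA/CNP, SD, n = 3; log2 fold change 0.43 ± 0.12, edgeR adjusted p = 0.0241), Ndufb8 (0.40 ± 0.13) and Ndufb7 (0.35 ± 0.11), accessory subunits of the membrane arm of complex I, and Cox7b (0.28 ± 0.09), a small subunit of cytochrome oxidase. Each of the 4 lost its call when single libraries were left out: 0 nuclear members were called without control library 1, control library 2 or CS-PA/CNP library 3, and 1 was called without any of the other 3 libraries. On library totals 1 was called, Cox5a (0.38).

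Both agents against PgLPS asked what the material changed in cells that also had PgLPS. Of the mitochondrial messengers, 5 of 10 were called higher (50%) and 0 lower, beside 9.42% of all tested genes higher and 10.0% lower, and in none of these did the libraries of the 2 groups overlap. mt-Nd6 had levels of 152.0, 183.4 and 153.6 CPM with PgLPS and 187.5, 219.6 and 186.1 CPM with both (log2 fold change 0.28 ± 0.08, edgeR adjusted p = 0.0122), mt-Nd2 rose by 0.27 ± 0.06, mt-Nd1 by 0.20 ± 0.05, mt-Nd4 by 0.18 ± 0.05 and mt-Cytb by 0.18 ± 0.05. With both agents the levels of mt-Nd6, mt-Nd2, mt-Nd4 and mt-Cytb lay below every control library, and that of mt-Nd1 overlapped with control. mt-Nd5 gave 0.20 ± 0.09 (edgeR adjusted p = 0.153), called without library 2 of the group with both agents (0.28), and mt-Co1 gave 0.05 ± 0.05 (edgeR adjusted p = 0.57).

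These rises were small and some rested on single libraries. Without PgLPS library 1 the number called was 3, with mt-Nd4 at 0.15 and mt-Nd6 at 0.23 no longer called. Library 2 of the group with both agents carried the calls of mt-Nd4 (0.15 without it) and mt-Nd6 (0.20), PgLPS library 3 that of mt-Nd6 (0.24), and library 1 with both agents that of mt-Cytb (0.17). Library totals gave the same 5 calls. PgLPS library 1 is the library with most stromal marker reads; the part of these in the result was not tested, and without it all 7 of the abundant genes were still above 0.

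Nuclear members gave 3 rises and 1 fall of 76 in the same comparison, shares below those of all genes. Ndufa12 was at 19.68, 29.31 and 27.36 CPM with PgLPS and 32.95, 35.19 and 35.23 CPM with both (log2 fold change 0.43 ± 0.11, edgeR adjusted p = 0.00977). Ndufs8 was at 20.06, 25.34 and 24.42 CPM and then at 28.33, 33.45 and 29.03 CPM (0.38 ± 0.11, edgeR adjusted p = 0.0167). Both are complex I subunits that fell with PgLPS against control, a comparison that uses the same PgLPS libraries. Atp5g1, another gene for the c subunit of the ATP synthase, gave 0.31 ± 0.10 (edgeR adjusted p = 0.0368). Ndufs8 was not called without PgLPS library 1 (0.29) or library 2 with both agents (0.30), and Atp5g1 was not called when any of PgLPS libraries 1 and 3 or libraries 2 and 3 with both agents was left out (0.20 to 0.35).

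Cox7a1, the heart and muscle isoform of Cox7a, was the fall, on very few reads. It had 11, 17 and 12 reads in the PgLPS libraries and 1, 7 and 1 with both agents, beside 14, 17 and 10 in control and 10, 8 and 14 with CS-PA/CNP. The log2 fold change was −2.19 ± 0.59 (edgeR adjusted p = 0.012), and −1.81 and −1.84, not called, without library 1 or library 3 of the group with both agents. Its paralogue Cox7a2 was at 67.2 ± 11.4 CPM under PgLPS and 60.4 ± 7.8 CPM under the combination (SD, n = 3).

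With both agents against control, 0 mitochondrial members were called higher and 5 lower, with a median of −0.22. Nuclear members gave 21 rises (27.6%) and 3 falls of 76, median 0.19, beside 29.7% of all tested genes higher and 28.4% lower, median −0.01. Scaling moved this as in the first comparison: on library totals the median of all genes was −0.37, with 9 mitochondrial members lower and 3 nuclear members higher and 31 lower. Without library 2 of the group with both agents, 13 nuclear members were called higher.

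Cox5a, Ndufb1 and Atp5md had the highest fold changes here too, in a comparison that shares its control libraries with PgLPS against control. Cox5a was at 48.32, 58.8 and 45.79 CPM with both agents, above all control libraries (log2 fold change 1.09 ± 0.12, edgeR adjusted p = 2.21e-07; 0.72 on library totals). Ndufb1 gave 0.83 ± 0.14 and Atp5md 0.68 ± 0.12, called on either scale. Ndufs4 gave 0.55 ± 0.11 and Atp5k 0.46 ± 0.16, called on the TMM scale and not on library totals (0.18 and 0.09), and Atp5k was not called without control library 1 (0.39), control library 2 (0.40) or library 2 with both agents (0.32).

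Weaker calls followed. Cox5b-ps, whose 75-base stretches occur to 43.0% in Cox5b, gave 0.51 ± 0.21 (0.15 on library totals) and lost its call without any library but control library 2. Atp5g1 gave 0.24 ± 0.10, lost without any single library of the comparison (0.15 to 0.27), and −0.12 on library totals. Among the falls, Cox7a2l gave −0.35 ± 0.09 (edgeR adjusted p = 0.00182), Ndufb2 −0.88 ± 0.31 at under 4 CPM and Cox7a1 −1.89 ± 0.59. Ndufb2 was not called without control library 1 (−0.85), control library 2 (−0.85) or library 1 (−0.79) or 2 (−0.57) with both agents, and Cox7a1 was not called without library 1 (−1.51) or 3 (−1.54) with both agents.

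The interaction term tested whether the change with CS-PA/CNP differed between cells with PgLPS and cells lacking it. edgeR called 0 of 10 mitochondrial and 0 of 76 nuclear members, beside 7.46% of all tested genes called higher and 8.34% lower. At an unadjusted p under 0.05 there were 3 mitochondrial and 4 nuclear members. DESeq2 called 1 mitochondrial member higher and 0 nuclear ones, and edgeR on library totals called 5 mitochondrial members higher, a scaling under which the median of all genes moved to 0.09. The 7 abundant mitochondrial genes had interaction terms between 0.03 and 0.26. On the TMM scale, fits with a replicate block and with no filter each called 1 mitochondrial member higher and 1 nuclear member lower, and leaving out 1 library gave 0 to 1 mitochondrial rises. In the fit of all 12 libraries the smallest adjusted p of a mitochondrial member was 0.0624, so a difference between the 2 settings was not shown there.

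Genes that serve the respiratory chain without being members were read from lists chosen for this purpose. The list of complex II and electron carriers had 4 rises (40%) and 1 fall (10%) of 10 tested with PgLPS against control, beside 32.2% and 31.6% of all tested genes. Cycs, which encodes cytochrome c, rose by 0.80 ± 0.07, from 81.7 ± 5.3 to 142.3 ± 7.97 CPM (SD, n = 3; edgeR adjusted p = 1.01e-08; 0.39 on library totals, called). Etfdh, which feeds electrons from fatty acid oxidation to ubiquinone, fell by 0.50 ± 0.09. Sdhb, the iron-sulphur subunit of complex II, gave 0.43 ± 0.10 and only 0.02 on library totals, where it was not called.

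Complex I assembly genes had 3 rises (18.8%) and 4 falls (25%) of 16, both shares below the 32.2% and 31.6% of all tested genes. Ndufaf7, a methyltransferase of complex I assembly, had a log2 fold change of −1.96 ± 0.17 (11.2 ± 1.75 CPM in control and 2.87 ± 0.463 with PgLPS; edgeR adjusted p = 9.76e-09). Nubpl, which delivers iron-sulphur clusters to complex I, gave −1.19 ± 0.20, and Ndufaf3 rose by 0.72 ± 0.12. Assembly factors of complexes III, IV and V had 7 rises (25%) and 4 falls (14.3%) of 28, again below those shares. Of these Coa5 and Cox18, both assembly factors of cytochrome oxidase, rose by 1.24 ± 0.07 and 0.94 ± 0.11 (edgeR adjusted p = 7.68e-12 and 3.03e-07).

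Genes for transcription, replication and RNA care in mitochondria had 5 rises (17.2%) and 6 falls (20.7%) of 29, fewer than the 32.2% and 31.6% of all tested genes. Pnpt1, the exoribonuclease that degrades mitochondrial RNA, rose by 1.26 ± 0.07, from 46.5 ± 3.58 to 111 ± 5.7 CPM (edgeR adjusted p = 1.42e-11). Lrpprc, which stabilises mitochondrial messengers, fell by 0.56 ± 0.06, from 85.4 ± 2.55 to 58.1 ± 0.673 CPM (edgeR adjusted p = 3.82e-07), and Tfb2m, a transcription initiation factor, fell by 0.65 ± 0.12. The mitochondrial ribosome list had 14 rises and 14 falls of 77 (18.2% each). In it Mrpl52 rose by 2.46 ± 0.14. Of 8 tested nuclear regulators 1 passed (12.5%), Esrra, an orphan nuclear receptor of respiratory genes, higher by 1.02 ± 0.07. Genes of mitochondrial mass and import had 5 rises (31.2%) and 6 falls (37.5%) of 16, near the shares of all genes, with the channel gene Vdac3 higher by 0.59 ± 0.07 and the phosphate carrier gene Slc25a3 at −0.29 ± 0.05. The directions of Cycs, Ndufaf7, Nubpl, Ndufaf3, Coa5, Cox18, Pnpt1, Lrpprc, Tfb2m, Mrpl52, Esrra, Vdac3 and Slc25a3 were the same on library totals. That scaling moves all genes by nearly −0.42, so falls and rises well above 0.42 were bound to keep their direction. The sameness is no separate result.

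When CS-PA/CNP was added to PgLPS, the import and mass list had 5 rises (31.2%, beside 9.42% of all tested genes) and 0 falls (beside 10.0%) of 16, among them Tomm20, a receptor of the import pore (0.28 ± 0.06), and Hspd1, the matrix chaperonin (0.27 ± 0.06). With CS-PA/CNP alone it had 2 rises (12.5%, beside 6.67%) and 0 falls (beside 5.61%). Among the 29 genes for transcription, replication and RNA care there were 1 rise and 1 fall (3.45% each): Elac2, which cuts transfer RNAs out of mitochondrial precursors, rose by 0.34 ± 0.08, and Mterf1a, a transcription termination factor, gave −1.04 ± 0.27, not called without library 1 with both agents (−0.80). The complex I assembly list and that for complexes III, IV and V gave 0 calls in either comparison of CS-PA/CNP.

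Promoters of the nuclear members were searched for sites of factors known to act on respiratory genes. RefSeq (GRCm38.p6) promoters, from 250 bases before to 50 after the gene's start, were found for 67 of 84 nuclear members. Both rows with the symbol Atp5o are among the 67 and share the same promoter, which is counted for each and holds none of the motifs. GCATGCGC, the core of the NRF1 site, occurred on either strand in 9 of 67 (13.4%), beside 2.8% of 27025 promoters of all genes. CCGGAAG, an ETS site read by GABP, occurred in 14 (20.9%) beside 9.1%, and AAGATGGC, the YY1 site, in 9 (13.4%) beside 2.9%. CCGGAAG ends with the AAG that begins AAGATGGC, so sites of these 2 can overlap. A match describes the sequence, not binding.

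The promoters are shown of Cox5a, called higher with PgLPS, with CS-PA/CNP and with both against control, of Ndufs8, the nuclear gene with the largest called fall under PgLPS, and of Uqcr11, the second in that order, which also holds 2 of the motifs. Each runs in the direction of its gene, with matched motifs in capitals: CTTCCGG, the ETS site on the other strand, in Ndufs8, and CCGGAAG and GCATGCGC in Uqcr11. They lie at chr9:57520982-57521281 (Cox5a, plus strand), chr19:3912725-3913024 (Ndufs8, minus strand) and chr10:80406772-80407071 (Uqcr11, minus strand). No searched motif occurs in the window of Cox5a. These windows do not stand for all rises and falls with PgLPS. Among the rises, Atp5l and Atp5k matched both CCGGAAG and GCATGCGC on either strand, Atp5md matched CCGGAAG, and Ndufb1 matched no motif. Among the falls, Cox7a2l and Ndufa12 matched no motif. Whether the motifs go with the direction of change was not tested.
Cox5a: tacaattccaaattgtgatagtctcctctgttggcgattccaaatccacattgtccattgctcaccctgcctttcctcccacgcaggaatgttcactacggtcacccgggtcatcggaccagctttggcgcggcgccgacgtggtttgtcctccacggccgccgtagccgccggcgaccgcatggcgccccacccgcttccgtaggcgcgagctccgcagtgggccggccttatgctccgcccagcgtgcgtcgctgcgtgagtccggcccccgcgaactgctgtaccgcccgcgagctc
Ndufs8: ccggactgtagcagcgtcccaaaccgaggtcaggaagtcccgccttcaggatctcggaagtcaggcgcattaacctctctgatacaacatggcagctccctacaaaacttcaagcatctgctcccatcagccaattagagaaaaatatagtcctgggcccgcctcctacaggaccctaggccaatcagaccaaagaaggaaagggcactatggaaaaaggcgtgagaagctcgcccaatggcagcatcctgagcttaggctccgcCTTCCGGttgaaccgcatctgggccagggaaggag
Uqcr11: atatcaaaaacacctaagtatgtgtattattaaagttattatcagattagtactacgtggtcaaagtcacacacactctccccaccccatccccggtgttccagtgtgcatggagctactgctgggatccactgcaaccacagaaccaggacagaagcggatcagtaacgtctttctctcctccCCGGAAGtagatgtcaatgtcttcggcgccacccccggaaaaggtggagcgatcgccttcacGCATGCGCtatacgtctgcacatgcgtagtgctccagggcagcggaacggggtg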

How the data were processed

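RNA-seq of 12 libraries was deposited as 1 table of 21899 genes. Per the labels' protocols, fragments of 400 to 500 bp were selected and amplified in 15 PCR cycles. Without naming their roles, the submitters' processing notes list HISAT2 2.0.5, DESeq 1.30.0, cutadapt 1.15 and HTSeq 0.9.1. No source used here states the genome build, the strand setting or what was done with multiply mapped reads. All values come from the authors' raw, whole-number read counts as deposited; 12 further columns with FPKM were not used. Count columns were assigned to groups by the letters in their names (C, M, L, LM). Library numbers are those of the columns, and whether they pair libraries across groups is not known. Deviations from group means correlated between −0.068 and 0.224 for same-numbered libraries, and between −0.19 and 0.108 for libraries with different numbers. Same-numbered values were all positive for numbers 1 and 2 and of both signs for number 3. The main fit used no pairing.

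Counts of all genes were tested with edgeR 4.0.16 (R 4.3.3): 12 libraries in 1 fit with a mean per group, TMM scaling, filterByExpr (11656 genes tested, 99.97% of reads), and the quasi-likelihood test, 2-sided, at a Benjamini-Hochberg adjusted p of 0.05. Totals were 14992707 to 20082900 reads, and this depth limits what rare isoforms can show. CPM divides a count by the library total times its TMM factor; ± is SD (n = 3) for levels and SE for fold changes. DESeq2 1.42.0, other scalings and filters, a replicate block and leaving out each library were alternatives. Shared sequence was counted as 75-base stretches of GENCODE M21 transcripts (GRCm38). Nuclear coordinates in the table equalled that annotation for 1 of 84 members and are not given. Python 3.11.15 was used for summaries.

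The members, gene lists and tests were chosen with earlier results of these data known. Named are all mitochondrial genes, up to 6 nuclear rises and falls per comparison whose libraries do not overlap, fixed isoform sets (Atp5g1 to Atp5g3, Cox4i1 and Cox4i2, Ndufa4 and Ndufa4l2, Cox7a1, Cox7a2 and Cox7a2l, Cox6a1 and Cox6a2), and up to 3 genes per list by adjusted p. Uqcr11, Cox8a, Cox8b, Cox8c, Cox7b2 and Atp5o were named after their values were seen.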

Additional observations from a re-analysis of the deposited data

Results flagged for a closer look

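With all 12 libraries in 1 edgeR fit on the TMM scale, no member had an interaction past the threshold, while library totals gave 5 mitochondrial ones and a fit with no filter or with a replicate block gave 1. Of 184 tested genes of the supporting lists, 0 were called higher and 3 lower (1.63%) in the former fit, beside 7.46% of all tested genes higher and 8.34% lower. For these 3 genes the change with CS-PA/CNP differed between cells with and without PgLPS by edgeR's interaction test. Mterf1a, a termination factor of mitochondrial transcription, had an interaction of −1.26 ± 0.36 on the log2 scale (edgeR adjusted p = 0.0208), with levels of 3.18 ± 0.413 CPM in control, 3.73 ± 0.373 with CS-PA/CNP, 3.84 ± 0.158 with PgLPS and 1.84 ± 0.837 with both (SD, n = 3). Its call was lost without control library 3 (−1.16), CS-PA/CNP library 2 (−1.17) or library 1 (−1.03) or 3 (−1.16) with both agents. Mrpl52, of the large mitochondrial ribosomal subunit, had an interaction of −0.91 ± 0.19 (edgeR adjusted p = 0.00177). It was at 23.7 ± 2.42 CPM in control and 35.1 ± 4.18 with CS-PA/CNP, and at 130.3 ± 26.0 CPM with PgLPS and 102.5 ± 15.2 with both. Esrra, the orphan nuclear receptor, had an interaction of −0.45 ± 0.10 (edgeR adjusted p = 0.0051), at 52.0 ± 2.47 and 58.0 ± 3.94 CPM without PgLPS and 105.3 ± 8.5 and 86.2 ± 0.995 CPM with it.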

How the results depend on the processing

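Scaling had the widest effect. With library totals in place of TMM, nuclear members called higher and lower numbered 3 and 43 for PgLPS against control, 3 and 39 for both agents against CS-PA/CNP, and 3 and 31 for both agents against control. Mitochondrial members called lower numbered 8 and 9 in the latter 2, nuclear rises 1 for CS-PA/CNP against control and 5 for both agents against PgLPS, and mitochondrial interactions 5. This scaling turned mt-Co1 (−0.37 for PgLPS against control and −0.25 within CS-PA/CNP), Atp5g3 (−0.20), Cox7a2 (−0.03), Ndufs3 (−0.03), Atp5pb (−0.07) and Atp5g1 (−0.12). RLE scaling and TMM computed without the members kept all 24 counts within 1.5 times, and DESeq2 kept 23 of 24, with 1 mitochondrial interaction as the exception.

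Whether the numbers shared between groups pair the libraries is not known. With a replicate block, 4 nuclear members were lower within CS-PA/CNP, 8 higher with CS-PA/CNP against control, 6 higher and 2 lower for both agents against PgLPS and 36 higher for both against control, and the interaction gave 1 mitochondrial rise and 1 nuclear fall. With no filter, 8 nuclear members were lower with PgLPS, 3 were lower within CS-PA/CNP, 5 were higher and 2 lower for both agents against PgLPS, and the interaction gave 1 mitochondrial rise and 1 nuclear fall. A filter of 1 CPM in 3 libraries left 0 nuclear falls for both agents against PgLPS, since Cox7a1 was then not tested. Fits of only the 2 groups compared gave 3 nuclear falls within CS-PA/CNP, 10 nuclear rises for CS-PA/CNP against control and 3 mitochondrial rises for both agents against PgLPS.

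Leaving out 1 library at a time gave 9 to 30 nuclear rises and 4 to 8 falls with PgLPS, 7 to 14 and 1 to 5 within CS-PA/CNP, 0 to 1 rises for CS-PA/CNP against control, 1 to 7 and 0 to 2 for both agents against PgLPS, and 13 to 24 and 1 to 3 for both against control. Mitochondrial counts were 3 to 5 rises for both agents against PgLPS and 0 to 1 rises for both against control, and interactions were 0 to 1 mitochondrial rises, 0 to 1 nuclear rises and 0 to 2 nuclear falls. Small fold changes for PgLPS against control reached or crossed 0: mt-Co1 ranged from 0.00 (just below 0 before rounding, without control library 2 or 3) to 0.07, mt-Atp6 from −0.32 to 0.12, mt-Co3 from −0.22 to 0.08 and Atp5g1 from −0.17 to 0.04 (the latter without PgLPS library 1).

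The log2 ratio of mitochondrial to nuclear reads ranged from −0.38 to −0.22 for PgLPS against control, −0.25 to −0.10 within CS-PA/CNP (−0.10 without library 2 with both agents), −0.31 to −0.16 for both agents against control, −0.12 to 0.03 for CS-PA/CNP against control (0.03 without control library 1) and −0.04 to 0.15 for both agents against PgLPS (−0.04 without PgLPS library 2). As a difference of median log2 CPM it was −0.67 for PgLPS against control, −0.40 within CS-PA/CNP and −0.54 for both agents against control. Without mt-Co1 these were −0.63, −0.41 and −0.47, and from mt-Nd1, mt-Nd6 and mt-Cytb the first 2 were −0.55 and −0.35; the cause was not tested. Leaving out mt-Co1, using those 3 genes, and restricting nuclear members by length or shared sequence were chosen after seeing the data.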
